A study of Mus musculus with 6 samples.

Results

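Neuronal microtubule and neurofilament proteins are covered here by 9 genes (Map2, Mapt, Map1b, Tubb3, Nefl, Nefm, Nefh, Dpysl2 and Dpysl3), out of 8251 genes named on the array. They were taken by name, not by their values, and all 12 probe sets that the platform annotation gives to 1 of them were kept. Of the 9 genes, 7 had 1 probe set, Tubb3 had 2 and Mapt had 3. RNA from mouse hippocampus was hybridised for 6 samples, 1 array each, in a study of HuD overexpressors; HuD, the product of Elavl4, is a neuronal protein that binds RNA. No label says which samples came from overexpressing mice, nor their strain, age, sex, promoter of the transgene or number of animals per sample, so the samples were put in no group and keep their title numbers, 1 to 6. No sample is called transgenic or control, and differences between single arrays cannot be set against replicates. The values are deposited signal intensities, and a single array gives no error for them.

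Microtubules are polymers of alpha and beta tubulin that carry transport along axons and dendrites. Microtubule-associated proteins bind and stabilise them, MAP2 mainly in dendrites and cell bodies and tau mainly in axons. Neurofilaments are the intermediate filaments of neurons and set the calibre of large axons. Collapsin response mediator proteins bind tubulin and act in axon growth and guidance. HuD is known to bind and stabilise AU-rich neuronal mRNAs, and the mRNA of tau is among its reported targets.

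The RefSeq promoter table (GRCm38.p6) held 3 of the 9 genes, Map2, Tubb3 and Map1b. The stretch before the first annotated base of each gene is shown because the 3 include the member with the widest range between samples (Map2) and a pair that did not follow it. Capitals mark the GC box GGGCGG, the element bound by Sp1-type factors, searched on both strands.
Map2, chr1:66175079-66175201, plus strand: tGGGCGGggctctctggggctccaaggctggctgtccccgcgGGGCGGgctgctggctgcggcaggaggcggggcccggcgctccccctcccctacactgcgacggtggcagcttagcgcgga
Tubb3, chr8:123411303-123411552, plus strand: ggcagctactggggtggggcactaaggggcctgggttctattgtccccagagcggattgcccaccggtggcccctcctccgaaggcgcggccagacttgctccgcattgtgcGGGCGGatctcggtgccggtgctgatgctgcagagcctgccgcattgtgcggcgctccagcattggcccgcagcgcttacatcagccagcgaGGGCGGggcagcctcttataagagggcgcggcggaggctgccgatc
Map1b, chr13:99516603-99516852, minus strand: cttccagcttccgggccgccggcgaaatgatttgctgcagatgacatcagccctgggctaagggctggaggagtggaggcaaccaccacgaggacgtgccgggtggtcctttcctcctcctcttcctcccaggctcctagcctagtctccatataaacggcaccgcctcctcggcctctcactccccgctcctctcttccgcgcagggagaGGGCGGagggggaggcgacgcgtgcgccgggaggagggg
All 3 stretches were rich in G and C. The GC content was 77.2% over 123 bases for Map2, against a median of 50.4% in the first 123 bases of 32851 mouse promoter windows of 300 bases. Those windows were not cut at each gene's first annotated base, as the Map2 stretch was, so the distance to that base can differ. The GC content was 68% over 250 bases for Tubb3 and 66.4% over 250 bases for Map1b, against a median of 52.4%. The GC box occurred 2 times before Map2, and 13.2% of promoters hold it in their first 123 bases, with the same limit. It occurred 2 times before Tubb3 and 1 time before Map1b, in a window where 32.7% of promoters hold it. The TATA box TATAAA was found in the Map1b stretch only (12.4% of windows of that length), and the CCAAT box, searched as CCAAT, in the Tubb3 stretch only (33.8%). The E-box CANNTG was found 1 time, in the Map1b stretch (66.2% of windows of that length). The number of overlaps between different motifs was 0 in each stretch. A match in letters is not a binding site.

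Each array was divided by its median, and the range of a probe set is the difference between its highest and lowest sample on the log2 scale. Array medians lay between 59.9 and 63.3 in signal. Of 7 markers of hippocampal excitatory neurons 6 were measured and 5 had a median above the array median, Prox1 being the exception. All 7 interneuron markers, 7 of 8 myelin markers and 4 of 4 microglia markers were measured, each above the array median. No marker was listed at 0. Of the 9 marker lists, that of the choroid plexus differed most between samples, with a summed signal of 123.4, 133.7, 324.3, 1785, 711.9 and 2120.5 (samples 1 to 6). Of the 4 choroid plexus markers, Kl and Aqp1 had medians under the array median.

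The 12 probe sets differed by 0.15 to 1.01 on the log2 scale between their extreme samples. Past 1.5-fold were 5 of the 12 (Map2, Map1b, Tubb3 161612_f_at, Nefm and Dpysl3), and 37.4% of all 10833 probe sets with 1 gene symbol passed the same limit. The count is close to that background. Ranges change with level, so all probe sets were split by mean level into 3 classes of 3611. Their median ranges were 0.39 in the lower, 0.63 in the middle and 0.36 in the upper class. In the upper class 3 of 10 member probe sets passed 1.5-fold, beside 15.9% of the class. The middle class held only Dpysl3 of the members, which passed (55.1% of the class did), and the lower class only Map1b, which also passed (41.2%). Only Map2 passed 2-fold, which 14.1% of all probe sets and 2.22% of the upper class did. Over all 9 genes, each by its brightest probe set, the median range was 0.58, and 0.46 over all 8251 genes. For the 8 genes whose median lay above the array median it was 0.53, and 0.40 over the 4838 genes of that kind. With sample 1 left out the median over member genes was 0.34, against 0.36 over all such genes, and with sample 2 left out 0.33 against 0.38. The members then lay below the background, but only 7 of them had a median above the array median in each of these 2 settings.

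**Figure D1:**
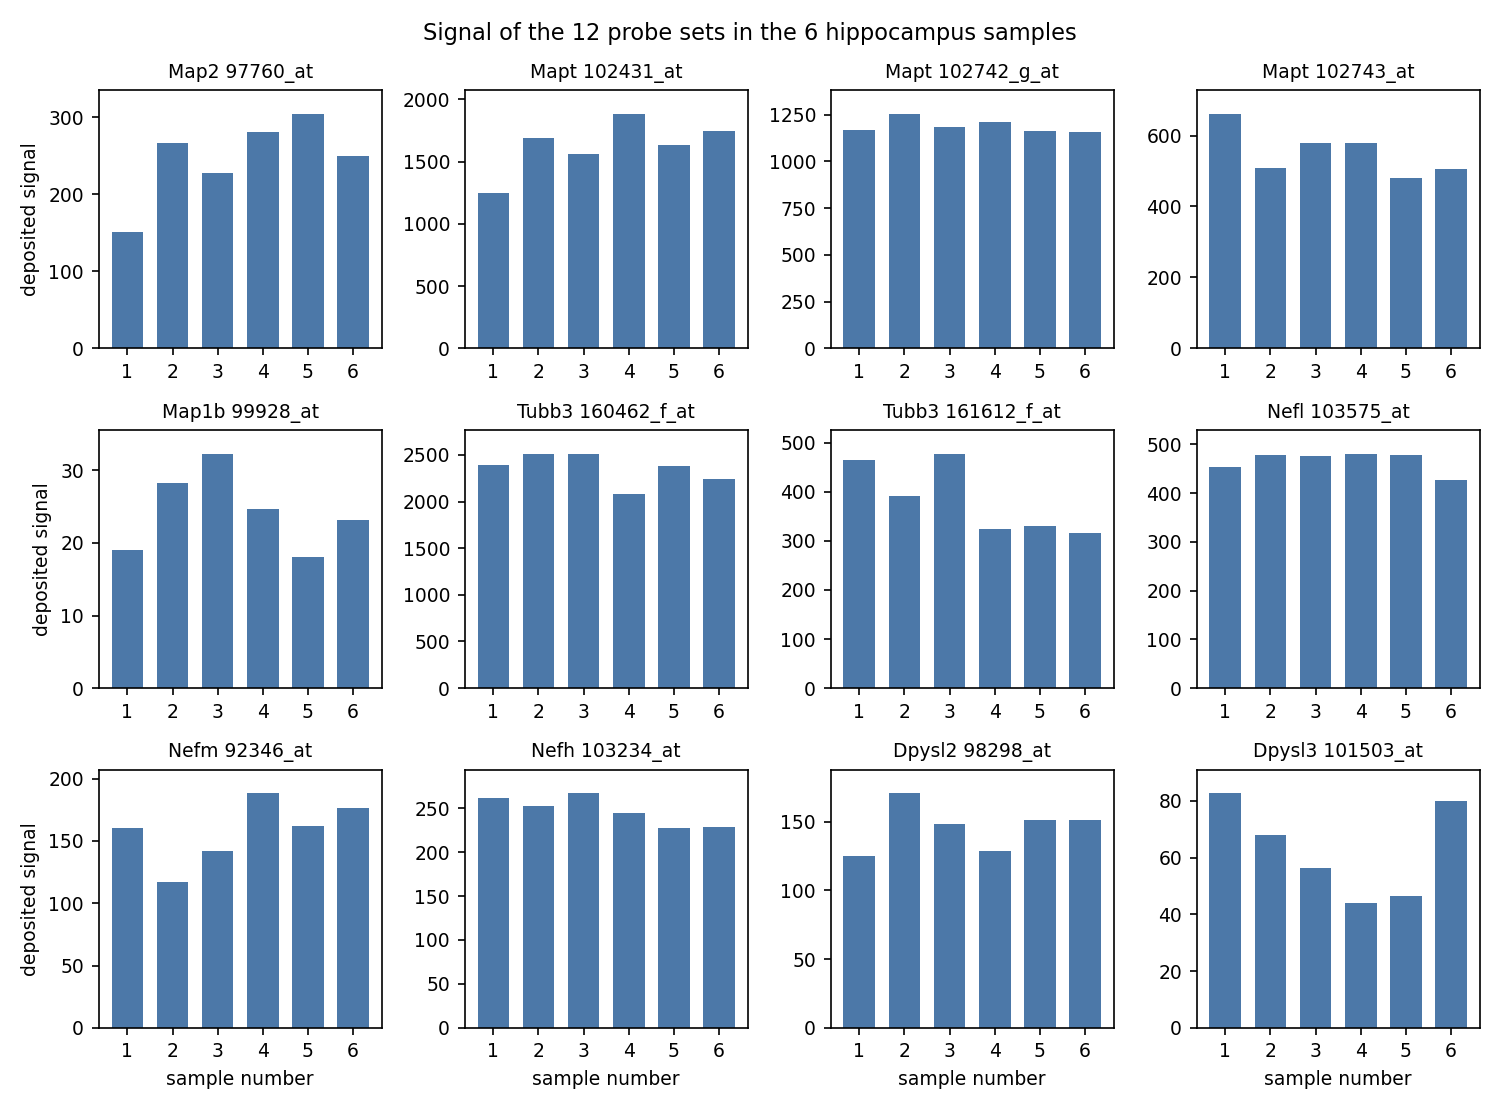
Deposited signal (vertical axes, each from 0) of the 12 probe sets in samples 1 to 6 (horizontal axes), 1 bar per array. Map2 had its lowest signal in sample 1 (150.4) and its highest in sample 5 (304.1), while the Mapt probe set 102742_g_at stayed between 1157 and 1253.

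Map2 encodes the main microtubule-associated protein of dendrites. Its single probe set, 97760_at, had a signal of 150.4, 266.5, 227.5, 280.4, 304.1 and 249.4 (samples 1 to 6). Sample 1 stood alone below the others. After scaling, the highest sample was 2.01 times the lowest, 1.27 times with sample 1 left out and 1.85 times with sample 5 left out. The range of Map2 was above that of 97.9% of the probe sets in the upper class of level. The same samples were lowest and highest in the deposited signals and after quantile normalization.

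Map2 had the sample order of the summary score of the hippocampal excitatory neuron markers, though not of each marker. The score, the median log2 deviation over the 6 measured markers, ordered all 15 pairs of samples as Map2 did, which was so for 13 of the 4838 genes, Map2 included. This was the highest agreement among 96 pairs of a probe set and a marker list, so it was picked from many. Map2 also shared 12 of 15 pairs with the microglia score and 11 with the myelin score, but 5 with the interneuron score. The excitatory neuron score was -0.36, 0.04, -0.23, 0.11, 0.24 and -0.05 (samples 1 to 6). The markers' summed signal was 1613 in sample 1 and 2590.2 in sample 5, its lowest and highest values. The single markers disagreed with each other: they ordered 8 (Neurod2) to 13 (Camk2a) of the 15 pairs as Map2 did. Camk2a, Wfs1 and Grin2b were lowest in sample 3, where Neurod6 was highest, and Prox1 was lowest in sample 6. Neurod2 was highest in sample 3 only after scaling, its deposited signal being 498.9 there and 526.3 in sample 4. Other lists had the same extreme samples in their summed signal. The 7 myelin markers summed to 4712 in sample 1 and 6542 in sample 5, and the 5 thalamus and habenula markers to 831.2 and 1059.7. Sample 1 also had the highest 3' to 5' ratio of the beta-actin (1.27) and Gapdh (0.86) controls, which are read as signs of RNA quality, and the lowest of the transferrin receptor control (2.54). The beta-actin and Gapdh ratios each ordered 3 of 15 sample pairs as Map2 did and so the other 12 the opposite way, the pyruvate carboxylase ratio ordered 4 alike and the transferrin receptor ratio 10. The part of cell makeup and RNA quality in the Map2 values was not tested, and in whole tissue fewer cells of a type and less RNA per cell cannot be told apart.

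Mapt encodes tau, the microtubule-associated protein of axons. Its 3 probe sets did not give the same picture. Probe set 102431_at had a signal of 1247, 1689.6, 1562, 1882, 1629.9 and 1746 (samples 1 to 6). As with Map2, sample 1 stood below the other samples, and the range of 0.58 on the log2 scale lay just under the 1.5-fold limit after scaling by the median and just over it in the deposited signals (1.51-fold) and after quantile normalization (1.57-fold). Without sample 1 it was 1.15-fold.

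Probe set 102743_at, also of Mapt, ran the other way in sample 1. It had a signal of 660.8, 508.5, 577.9, 579.5, 481.3 and 507.0 (samples 1 to 6). Sample 1, lowest for 102431_at, was highest here, with a range of 1.38-fold. The remaining one, 102742_g_at, whose name marks probes shared with another probe set, differed little, from 1157 in sample 6 to 1253 in sample 2, a range of 1.11-fold after scaling. Of the 15 pairs of samples, 102431_at and 102743_at ordered 6 alike, 102431_at and 102742_g_at 8, and 102742_g_at and 102743_at 9. No one sample order thus describes Mapt. Which transcripts of Mapt each probe set reads was not looked up here.

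Map1b encodes a microtubule-associated protein of growing axons, which is abundant early in brain development. Its probe set 99928_at lay below the array median on all 6 arrays. Signals were 19.0, 28.2, 32.3, 24.7, 18.1 and 23.2 (samples 1 to 6). Samples 2 and 3 had the highest values and samples 1 and 5 the lowest, but none of them is shown to be above background. The range of 1.88-fold becomes 1.00-fold when values under the array median are counted at it.

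Tubb3 encodes the beta tubulin most typical of neurons. Both of its probe sets have names that mark probes shared within a gene family, so other beta tubulins may add to them. Probe set 160462_f_at had a signal of 2397, 2513, 2511, 2082, 2381 and 2239 (samples 1 to 6). Sample 4 was lowest, and the range was 1.27-fold after scaling by the median and 1.16-fold after quantile normalization. After scaling by the median or by quantiles sample 3 was highest, and in the deposited signals sample 2. The second probe set, 161612_f_at, had a signal of 464.5, 391.1, 477.5, 323.6, 330.3 and 316.6 (samples 1 to 6). Sample 3 was highest and sample 6 lowest in this probe set, and the range was 1.58-fold, 1.51-fold in the deposited signals and 1.49-fold after quantile normalization. Without sample 3 it was 1.47-fold. The 2 probe sets ordered 13 of 15 sample pairs alike.

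The neurofilament genes Nefl, Nefm and Nefh encode the light, medium and heavy subunits of one filament. Nefl (103575_at) varied least of the 3, with 454.6, 478.0, 476.6, 480.9, 478.5 and 426.0 (samples 1 to 6). Samples 2 to 5 were nearly level, and the range was 1.17-fold, 1.10-fold without sample 6. Nefh (103234_at) had 261.0, 252.5, 266.8, 244.4, 227.3 and 228.0 (samples 1 to 6). Its highest sample was 1.24 times its lowest.

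Nefm (92346_at) varied more than the other neurofilament genes and in another order. Its signal was 160.4, 116.8, 142.0, 188.2, 161.7 and 176.2 (samples 1 to 6). Sample 2 was lowest and sample 4 highest, with a range of 1.56-fold, and of 1.25-fold without sample 2. Nefl and Nefh ordered 11 of 15 sample pairs alike, whereas Nefm ordered 5 as Nefl did and 5 as Nefh did. Nefl and Nefm lie close together on chromosome 14, with 1 annotated pseudogene between them. Sample 2 is also the only sample whose second title code is 2, a code that the labels do not explain.

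Dpysl2 and Dpysl3 encode collapsin response mediators, the first a tubulin-binding protein of axon formation and semaphorin signalling, the second a relative that is abundant in young neurons. Dpysl2 (98298_at) had a signal of 125.0, 170.5, 148.3, 128.4, 151.4 and 151.3 (samples 1 to 6). Samples 1 and 4 were low and sample 2 high, and the range was 1.40-fold, 1.24-fold without sample 2. Dpysl3 (101503_at) had 82.6, 67.9, 56.2, 43.8, 46.5 and 79.9 (samples 1 to 6). Samples 1 and 6 were highest and samples 4 and 5 lowest, a range of 1.90-fold. In 3 of the 6 samples Dpysl3 lay under the array median, and with such values counted at the median its range was 1.32-fold. The 2 genes ordered 8 of 15 sample pairs alike.

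**Figure D2:**
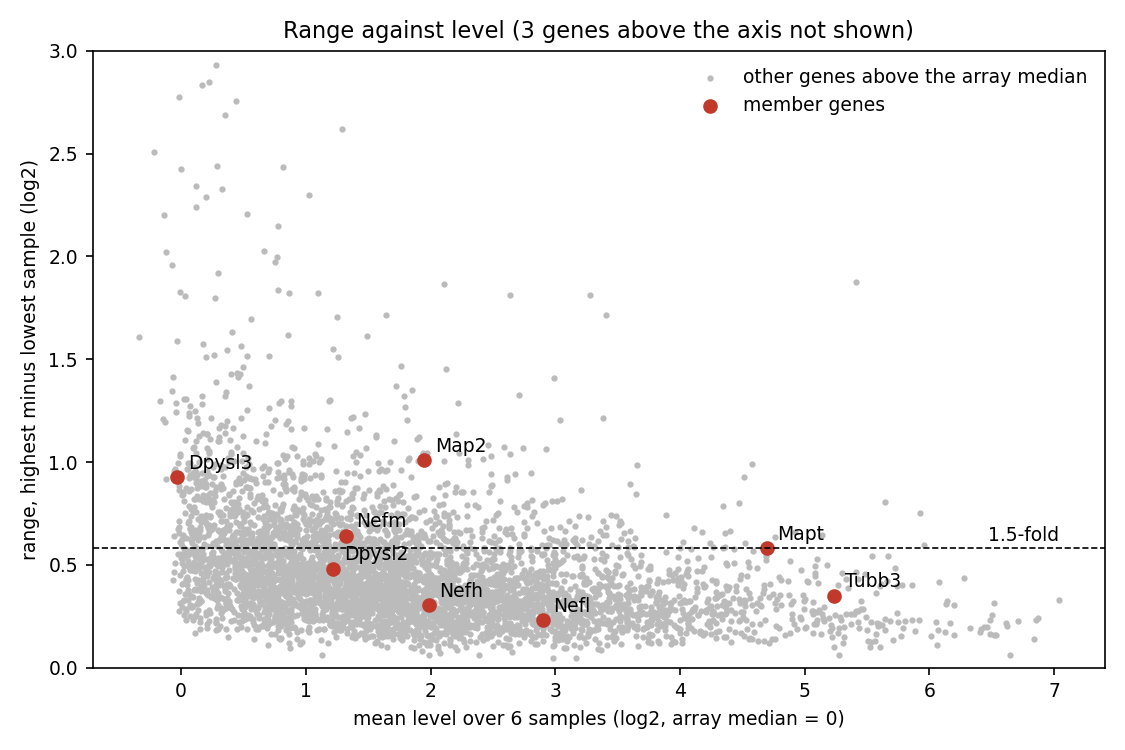
Range between samples (vertical axis, log2) against mean level (horizontal axis, log2 relative to the array median) for the 4838 genes whose median lay above the array median, each by its brightest probe set, with 3 genes above the top of the axis. Of the 8 member genes shown in red, Map2 (1.01), Dpysl3 (0.93) and Nefm (0.64) lie above the dashed line at 1.5-fold, and Map1b is not shown.

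The 9 genes did not share 1 sample order. Taking the brightest probe set of each, the 36 pairs of genes ordered a median of 8 of 15 sample pairs alike, between 1 and 12. The highest agreement, 12 of 15, was that of Map1b with Nefl and with Nefh, and Map1b is the dim one. The lowest was that of Tubb3 with Nefm, at 1 of 15, and Map2 shared 3 of 15 with Dpysl3 and with Nefh. These agreements come from the same 6 arrays and are given as a description. Sample 3 was highest for 5 of the 12 probe sets and lowest for 0, whereas sample 6 was highest for 0 and lowest for 3. Over all probe sets sample 6 was highest for 12.97% and lowest for 16.45%. Sample 3 also had the lowest array median (59.9), by which its values were divided, and it was highest for 23.6% of all probe sets and lowest for 13.9%. In the deposited signals it was highest for 3 of the 12, beside 15.9% of all probe sets, and after quantile normalization for 4, beside 17.9%. In sample 3 the pyruvate carboxylase (3.56) and transferrin receptor (3.47) controls had their highest 3' to 5' ratio, and the part of this in the member values was not tested. The lowest and the highest sample were both the same under the 3 scalings for 9 of the 12 probe sets, the exceptions being Mapt 102742_g_at, Tubb3 160462_f_at and Nefl.

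**Figure D3:**
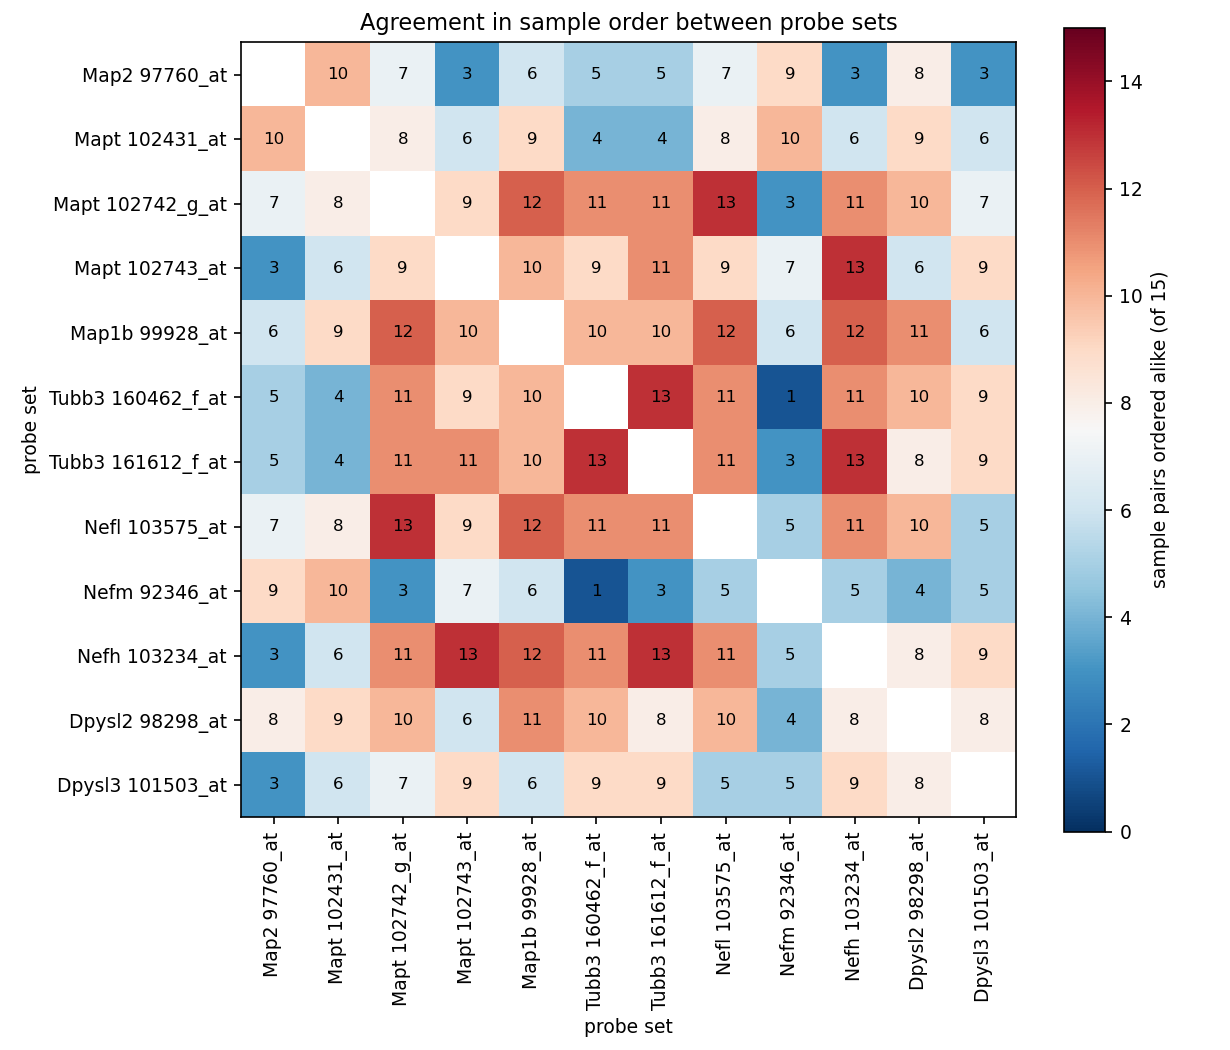
Number of the 15 pairs of samples that 2 probe sets order alike, for each pair of the 12 probe sets (rows and columns), in colour and digits. Blue cells mark opposite order, as between Tubb3 160462_f_at and Nefm (1 of 15), and red cells like order, as between the 2 Tubb3 probe sets (13 of 15).

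The genes whose values lay closest to a member's were found over the 6 samples, as the smallest root mean square difference in log2 value, each gene centred on its own median, among the other genes with a median above the array median. For Map2 these were Timm22 (0.08), Emc6 (0.11) and Sorl1 (0.12). Timm22, a subunit of the mitochondrial inner membrane translocase, had 54.0, 85.6, 83.2, 98.7, 97.8 and 87.3 (samples 1 to 6), with sample 1 lowest as for Map2. Sorl1, a sorting receptor of neurons, ranged 1.66-fold, with 79.0 in sample 1 and 131.5 in sample 5. For Nefm the closest were Rps29 (0.06), Gadd45g (0.07) and Olfr140 (0.07), each lowest in sample 2. For Dpysl3 they were Pim1 (0.11), Ttc3 (0.13) and Col6a1 (0.13). For Map1b, whose own values were all dim, they were Btf3 (0.11), Tst (0.12) and Krt1 (0.13). Col6a1, a collagen chain, ordered all 15 sample pairs as Dpysl3 did, with 333.0 in sample 1 and 145.5 in sample 4. These matches are descriptions of 6 arrays and were not tested.

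The 10 lists of further cytoskeleton genes held 89 names, Map7 being listed also by its older symbol Mtap7. Of these genes 70 were measured and 61 had a median above the array median. Past 1.5-fold were 13 of the 61, beside 23.7% of the 4838 genes, a share near that background. Without sample 1, and likewise without sample 4, 8 of the 61 passed, but the background fell too, to 17.9% and 19.2%. The median range of the 61 genes was 0.40, as for the 4838.

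Alpha tubulins, the partners of beta tubulin in the microtubule, varied little. None of 4 passed 1.5-fold, and the widest, Tuba8, had 251.1 in sample 1 and 322.5 in sample 2, a 1.31-fold range. Some of the alpha tubulin probe sets, though not that of Tuba8, carry a suffix for probes that are shared or less specific. Of 6 beta and gamma tubulins only Tubg2, a gamma tubulin of the microtubule-organising centre, passed, at 1.54-fold. Among 12 other microtubule-associated proteins 4 passed. Map1s had 215.3 in sample 6 and 347.6 in sample 4 (1.60-fold). Map6, which protects microtubules from cold, had 175.0 in sample 4 and 276.3 in sample 5 (1.58-fold). The plus-end binding Mapre3 (1.51-fold) lay just inside the limit, as did the linker Clip2 (0.590 on the log2 scale), and Dcx, doublecortin, just outside (0.584).

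Among 4 stathmins, which bind free tubulin and favour disassembly, Stmn1 alone passed, at 1.58-fold, with 2433 in sample 1 and 1552 in sample 4. Those were also the highest and lowest samples of Dpysl3. Of 4 other intermediate filament genes only Gfap, the astrocyte filament, passed, at 1.76-fold, with 335.9 in sample 1 and 563.6 in sample 3. The neuronal filament gene Ina ranged 1.24-fold. Neither of 2 other collapsin response mediators passed, the wider being Dpysl4 at 1.35-fold.

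Of 9 kinases, phosphatases and regulators that act on tau and neurofilaments, Gsk3a, a tau kinase, passed at 1.69-fold, with 2807 in sample 4 and 4483 in sample 3. Cdk5, another tau and neurofilament kinase, ranged 1.16-fold. Of 6 genes of tubulin folding, modification and severing, the folding cofactor Tbcb passed at 1.65-fold, with its lowest value in sample 5 (78.2). None of 5 spectrin, ankyrin and membrane skeleton genes passed, the widest being Add1 at 1.34-fold. Of 9 actin cytoskeleton genes 4 passed. Pfn1, profilin, had 22.2 in sample 6, under the array median, and a measured range of 6.75-fold that was 2.08-fold without sample 6. Actb ranged 1.60-fold. Dbn1, drebrin of dendritic spines, ranged by 0.593 on the log2 scale and Gap43, the growth-associated protein of axons, by 0.587, both just inside the limit. Apart from Pfn1, each of the further cytoskeleton genes past 1.5-fold fell under that limit when 1 particular sample was left out. Leaving out a sample can only narrow a range, and how often other genes past 1.5-fold did the same was not counted. Without sample 1 Mapre3 ranged 1.27-fold, Dbn1 1.28-fold and Gfap 1.41-fold, and without sample 3 Gfap ranged 1.36-fold. Without sample 4 Gsk3a ranged 1.38-fold and Gap43 1.28-fold, without sample 5 Tbcb 1.32-fold and without sample 6 Tubg2 1.30-fold. Clip2 ranged 1.33-fold and Stmn1 1.39-fold without sample 1, and Map6 1.38-fold without sample 4. Actb ranged 1.45-fold without sample 5 and Map1s 1.46-fold without sample 6. The probe sets of Tubg2, Gfap, Actb and Gap43 carry a suffix for probes that are shared or less specific, as do those of Ina and other genes under the limit.

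**Figure D4:**
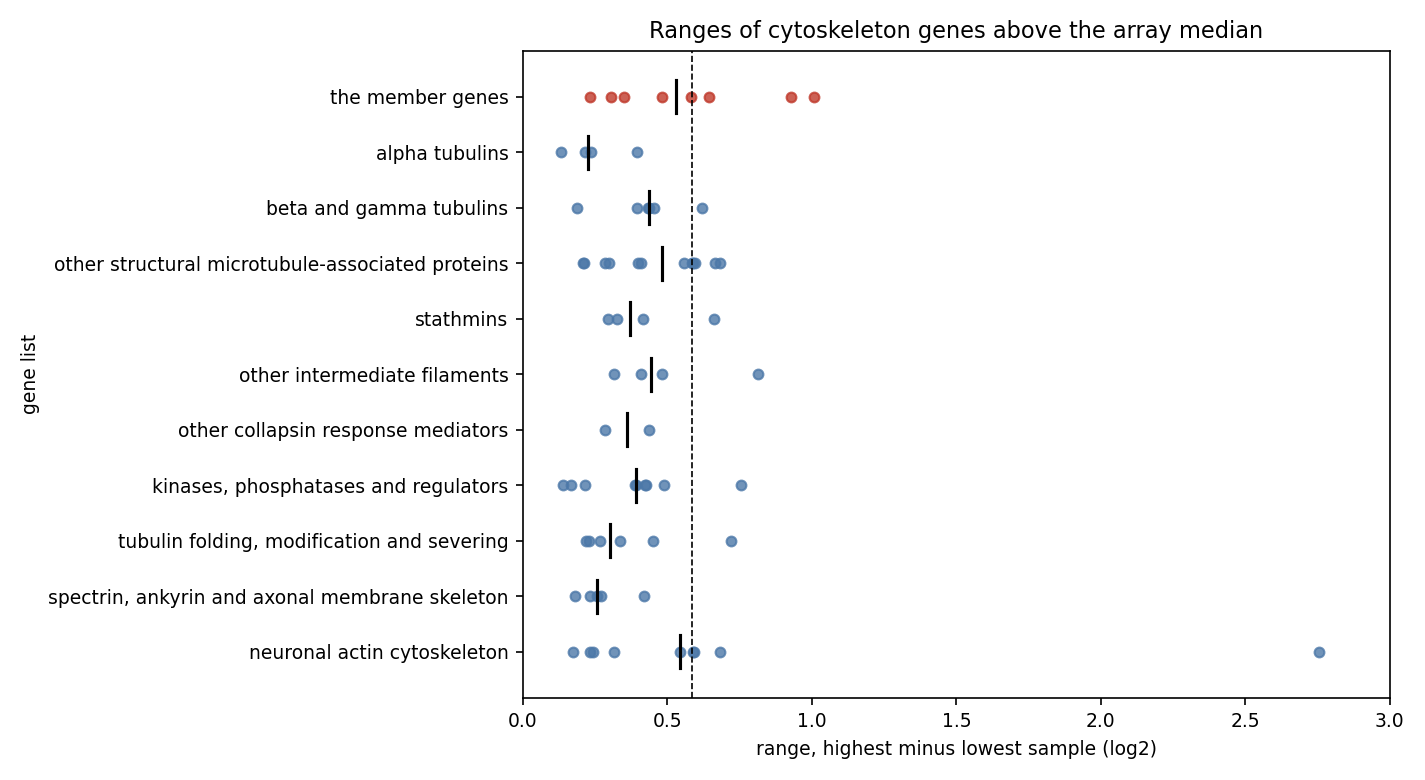
Range between samples (horizontal axis, log2) of the 8 member genes above the array median (red) and of the 61 other cytoskeleton genes (blue), by list, each point a gene and each vertical bar the list's median. The dashed line marks 1.5-fold, and Pfn1, the point farthest right, is at 2.76.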

How the data were processed

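Hippocampus RNA of 6 samples was measured, each on 1 array of 12488 probe sets, 66 of them controls. The authors deposited 1 linear signal intensity for each probe set. No label or header names their scanner, summary method or scaling. The mean between the 2nd and 98th percentile was 150.0 on every array, and no 2 columns were identical. No label gives a genotype, so no groups were formed or compared by a test, and precision is limited by the number of arrays. Only Dixon's limit for 1 sample standing apart was applied, to single probe sets.

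Each array was divided by its median over non-control probe sets, values under 0.2 of it were set to that floor, and log2 was taken (Python 3.11.15, pandas 2.3.3). Names of probe sets come from GEO's platform annotation, updated through RefSeq (10817 of 10833 with 1 symbol matched, 0 changed, 396 with several symbols and 1193 with none left unnamed). A gene was represented by its brightest probe set. Only the scaling and the range were tested on simulated data, without the floor. Alternatives were other scalings, floors, filters and probe set rules, and each sample left out.

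The members and lists were chosen with earlier results of these data known. All member probe sets are named. For each list up to 4 genes past 1.5-fold are named, or else the widest, and for members whose brightest probe set passed 1.5-fold the 3 closest genes. Cdk5, Ina and Dcx were named after their values were seen.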

Additional observations from a re-analysis of the deposited data

Results flagged for a closer look

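In 2 of the 12 probe sets 1 sample stood apart, its gap to the nearest other sample as a share of the whole range of the 6 samples, being past Dixon's 95% limit. For Map2, sample 1 was lowest and its gap was 0.659 of the range. For Mapt 102431_at, sample 1 was again lowest and its gap was 0.651 of the range. Chance flags about 1 in 20 groups of values, and 10.9% of all 10833 probe sets with 1 gene symbol had such a sample. The other Mapt probe sets had no sample that stood apart, and 102743_at was highest in sample 1.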

How the results depend on the processing

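A value counts as moved when it differs by more than 1.5 times. The median range of the member genes (0.53) lay between 0.33 and 0.53 with each sample left out and was 0.35 over the 5 members above the 75th percentile of the array. The filter on level was applied anew each time, so that 7 members instead of 8 entered the median without sample 1, 2 or 6. The count of member probe sets past 1.5-fold (5) was 3 with the array median as the floor and 4 to 5 with each sample left out. The count past 2-fold (1) was 0 to 1 with each sample left out, being 0 without sample 1 or 5. The count of other cytoskeleton genes past 1.5-fold (13) was 8 to 11 with each sample left out and 8 of 47 above the 75th percentile. The share of all such genes past 1.5-fold (23.7%) was 17.9% to 21.0% with each sample left out and 12.5% above the 75th percentile. The other alternatives left these 4 results within 1.5 times. Of 120 ranges of single probe sets under alternatives, 111 stayed within 1.5 times and 9 moved, 5 of them on leaving out a sample. The cause was not tested, except that a range over fewer samples cannot be larger. No paired analysis was possible because the labels give no groups. Without detection calls, values under the array median are not shown to be above background.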

Other observations

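The 12 probe sets were also set against the scores of 8 marker lists that hold none of the 9 genes, 96 pairs in all, by the number of 15 sample pairs ordered alike. In 5 of the 96 the agreement was 13 or more, and in 5 it was 2 or fewer. Over the 4838 genes and the same lists 3.54% reached 13 or more and 3.88% had 2 or fewer, so these counts are near the background. Besides Map2 with the excitatory neuron score, 13 pairs were shared by both Tubb3 probe sets with the GABAergic interneuron score, by Mapt 102431_at with the microglia score and by Map1b, dim in all samples, with the astrocyte score. Both Tubb3 probe sets shared 2 pairs with the microglia score, Tubb3 161612_f_at shared 2 with the choroid plexus score and Mapt 102431_at shared 2 with the interneuron score. Dpysl3 shared 1 pair with the myelin score. These are descriptions of 6 arrays.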
